A study of Mus musculus with 3 samples.

Results

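The corticoid receptors and a set of genes that they switch on were followed in mesenteric lymph node cells of orally fed mice. The set holds 7 genes, of 32285 in the deposited matrices: the receptors Nr3c1 (glucocorticoid receptor) and Nr3c2 (mineralocorticoid receptor) and the target genes Tsc22d3, Fkbp5, Per1, Sgk1 and Klf9. The members were chosen by measured values, since Nr3c2 in B cells was far higher in both antigen libraries than in the control library, so the levels of Nr3c2 in B cells below are a description and support nothing. Animals were fed for 4 weeks with LysoPS-OVA (1 µg ovalbumin in lyso-phosphatidylserine nanoparticles), with free OVA (1 µg ovalbumin) or with 5 mM citrate buffer, which is the control. The title of the control library calls it untreated, while its treatment label names the buffer, and it is called citrate buffer here. The nodes of 6 animals were pooled into 1 droplet single-cell library per group, and strain, age and sex are not given in the sources used here.

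Both receptors are nuclear receptors that wait in the cytoplasm bound to heat shock chaperones, and on binding steroid they move to the nucleus and bind DNA as pairs. The glucocorticoid receptor is made in nearly all cells and restrains lymphocyte activation, survival and cytokine output. The mineralocorticoid receptor is best known from salt transport in kidney and colon, binds both aldosterone and corticosterone, and recognises the same DNA element. Tsc22d3 encodes GILZ, an anti-inflammatory leucine zipper protein. Fkbp5 encodes a co-chaperone that lowers the receptor's affinity for steroid and so closes a feedback loop. Per1 is a clock repressor, Sgk1 a kinase that restrains the ubiquitin ligase Nedd4l, and Klf9 a zinc finger transcription factor.

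The upstream windows of the genes are shown because the receptors act through a short DNA element, a palindrome made of the hexamer AGAACA, 3 free bases and the reverse complement of that hexamer, both searched on either strand. RefSeq promoter windows on GRCm38.p6 were matched by symbol for 6 of the 7 genes, 14 windows in all, and Nr3c1 is named only. There were 32851 windows of 300 bases (250 before the start and 50 after it), and only the 250 bases before the start were searched. In these, 3 windows (0.00913%) held the full palindrome on either strand and 5284 (16.1%) the hexamer, those within a palindrome included. Among the 14 windows, 1 window of Sgk1 held the palindrome, and the hexamer also stood in 2 other Sgk1 windows and in 1 Tsc22d3 window. The E-box CACGTG, the site of the clock activators, stood in 1 Sgk1, 1 Per1 and 1 Fkbp5 window against 6.02% of all windows. Sgk1, Per1 and Tsc22d3 had more than 1 window each, and a window with marked motifs is shown for each. Each line gives the 250 bases before a start, 5′ to 3′ on the gene's strand, with hexamers, palindrome and E-box in capitals. They lie at chr8:76902080-76902329 (plus strand), chr10:21993640-21993889 (plus), chr11:69098699-69098948 (plus) and chrX:140600523-140600772 (minus).
Nr3c2: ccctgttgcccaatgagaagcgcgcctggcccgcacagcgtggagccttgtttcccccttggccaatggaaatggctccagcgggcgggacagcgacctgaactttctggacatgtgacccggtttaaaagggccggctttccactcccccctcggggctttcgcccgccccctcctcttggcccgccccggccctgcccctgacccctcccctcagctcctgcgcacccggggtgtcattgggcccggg
Sgk1: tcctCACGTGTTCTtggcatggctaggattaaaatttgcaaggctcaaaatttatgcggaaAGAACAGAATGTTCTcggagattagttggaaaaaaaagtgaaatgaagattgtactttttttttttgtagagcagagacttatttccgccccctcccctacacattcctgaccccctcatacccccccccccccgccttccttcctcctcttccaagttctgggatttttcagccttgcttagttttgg
Per1: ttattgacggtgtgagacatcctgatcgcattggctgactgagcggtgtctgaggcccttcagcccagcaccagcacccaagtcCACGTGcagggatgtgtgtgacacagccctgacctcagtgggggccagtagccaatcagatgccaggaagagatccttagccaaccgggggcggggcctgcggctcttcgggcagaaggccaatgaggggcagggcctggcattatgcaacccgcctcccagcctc
Tsc22d3: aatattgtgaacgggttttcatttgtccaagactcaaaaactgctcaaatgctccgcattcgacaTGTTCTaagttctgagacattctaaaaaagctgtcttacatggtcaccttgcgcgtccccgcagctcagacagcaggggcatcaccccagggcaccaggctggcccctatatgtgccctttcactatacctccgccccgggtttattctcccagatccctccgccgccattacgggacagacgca
In the Sgk1 window the palindrome reads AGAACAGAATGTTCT and starts 189 bases before the start site. The Nr3c2 window held none of the marked motifs, which says only that these letters are not in it.

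The libraries held 20873 barcodes with LysoPS-OVA, 28660 with free OVA and 28927 with citrate buffer, with 81559237 to 96616683 UMIs in total and medians of 1492 to 3686 UMIs per barcode. After quality filters 16025, 21949 and 21871 barcodes were kept in that order. Each pair of libraries shared 166 to 194 barcodes, at most 0.814% of a library. The labels call the cells intestinal, but 10 markers of intestinal epithelium (Epcam, keratins, Vil1, Muc2 and others) summed to only 8.87 to 12.2 CPM (UMIs of a gene divided by the summed UMIs, scaled to 1e6), while B and T lymphocyte classes were large. Cell classes were gated on marker transcripts and end in "-like" for that reason. The kept B-like barcodes numbered 6076 with LysoPS-OVA, 6075 with free OVA and 5847 with citrate buffer. The share of them low in ribosomal protein transcripts (under 10% of UMIs) was 15.2% with LysoPS-OVA, 14.3% with free OVA and 26.1% with citrate buffer. Among B-like barcodes with sex-specific transcripts of 1 kind, the share with Y-linked rather than Xist transcripts was 87.5% with LysoPS-OVA, 76.3% with free OVA and 55.9% with citrate buffer, so the pools differed in sex makeup. A single library stands for each feeding, so the spread between animals is unknown and no test was made. Intervals in parentheses are exact 95% intervals for counting error only (Poisson for levels, conditional binomial for ratios, binomial for shares). Values of different genes are not set against each other, because UMIs are not scaled by transcript length.

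Nr3c2, the mineralocorticoid receptor, stood far higher in B-like barcodes of both antigen libraries than in those of citrate buffer. It had 71.9 CPM (68.8 to 75.1) with LysoPS-OVA, 96.1 CPM (92.4 to 99.9) with free OVA and 12.2 CPM (10.7 to 13.8) with citrate buffer, from 1991 UMIs with LysoPS-OVA, 2520 with free OVA and 249 with citrate buffer. The intervals of the antigen libraries lie well above that of citrate buffer and do not overlap each other, free OVA being the highest. The ratio over citrate buffer was 5.88 (5.15 to 6.74) for LysoPS-OVA and 7.87 (6.90 to 8.998) for free OVA. LysoPS-OVA over free OVA gave 0.748 (0.705 to 0.793). Both comparisons with citrate buffer share that 1 library, so a low value there enters both. Of 7976 measured genes (mean of at least 10 CPM over the libraries and at least 30 UMIs over the pair), 2 had a higher ratio than Nr3c2 for LysoPS-OVA over citrate buffer, Trabd2b and Chsy3, and 1 for free OVA over citrate buffer, Fosb. These 3 genes were named after their values were seen.

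**Figure D1:**
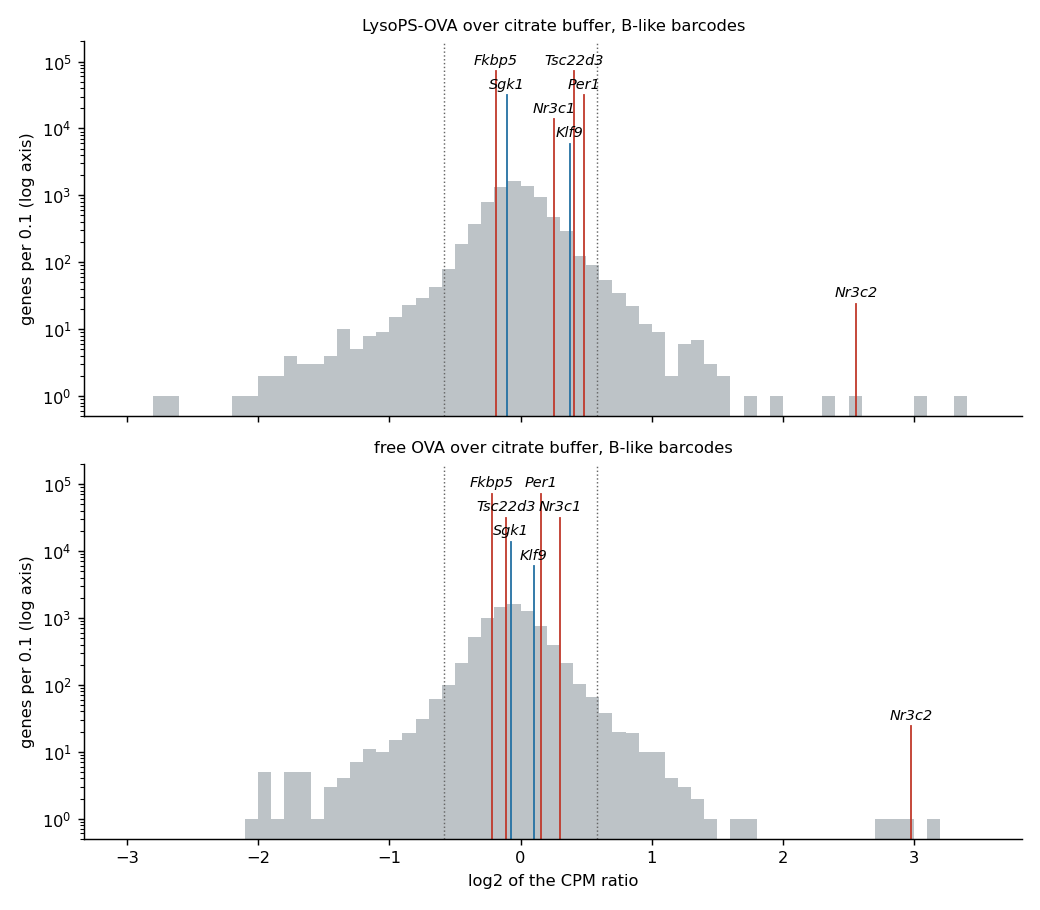
Histograms of the log2 CPM ratio over citrate buffer for the 7976 measured genes in B-like barcodes (grey bars, log count axis), for LysoPS-OVA above and free OVA below, with the 7 genes as vertical lines (red where measured, blue for Sgk1 and Klf9, which were under 10 CPM and are not in the bars) and dotted lines at ratios of 1.5 and 1/1.5. Nr3c2 lies at 2.56 and 2.98, apart from the other 6 genes, which lie between the dotted lines.

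Nr3c2 UMIs were next counted per B-like barcode, from the values that chose the set. At these levels a barcode with 0 UMIs may still come from a cell that expresses the gene. The share with at least 1 UMI was 14.9% with LysoPS-OVA, 16.4% with free OVA and 2.63% with citrate buffer. After every barcode was thinned to 1000 UMIs the share was 5.83% (5.24 to 6.45) with LysoPS-OVA, 7.06% (6.38 to 7.78) with free OVA and 1.19% (0.929 to 1.51) with citrate buffer, leaving out 119, 746 and 156 shallower barcodes in that order. CD8 T-like barcodes, in which the gene was low, gave thinned shares of 0.549% (0.179 to 1.28), 0.78% (0.213 to 1.98) and 0.363% (0.118 to 0.845) in the same order. Median depth in B-like barcodes was 4263, 4314 and 3156 UMIs, against 5845, 6760 and 4504 in CD8 T-like ones. The B-like share thus stood above that level in every library, the citrate buffer library included.

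Barcodes with 2 or more Nr3c2 UMIs numbered 461 (7.59%) with LysoPS-OVA, 531 (8.74%) with free OVA and 55 (0.941%) with citrate buffer. Their share of all Nr3c2 UMIs in the class was 77.5% with LysoPS-OVA, 81.6% with free OVA and 60.2% with citrate buffer. The highest count in a single barcode was 14, 16 and 10 in that order, while most barcodes of each library gave 0 UMIs at this depth.

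**Figure D2:**
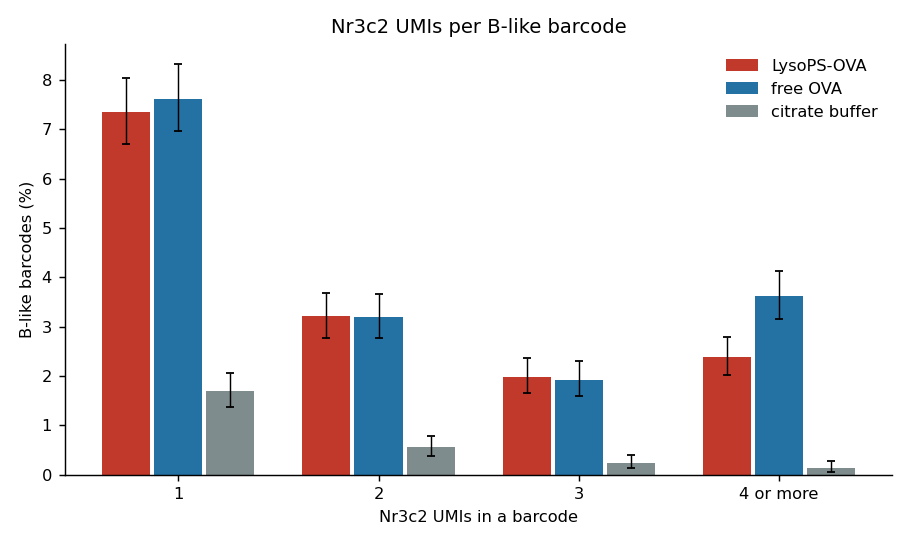
Share of B-like barcodes (%, exact 95% binomial intervals) that held 1, 2, 3 or at least 4 Nr3c2 UMIs, for LysoPS-OVA, free OVA and citrate buffer. The share with at least 4 was 2.39% with LysoPS-OVA, 3.62% with free OVA and 0.137% with citrate buffer.

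B-like barcodes with 2 or more Nr3c2 UMIs were next set against those with 0 within each antigen library, a split chosen after the data were seen. Target genes of the receptor differed between the sides by less than counting error. Tsc22d3 had 142 CPM in barcodes with 2 or more and 150.3 CPM in those with 0 for LysoPS-OVA, and 107 against 102 CPM for free OVA. The ratio of the sides was 1.10 and 1.01 for Fkbp5 in LysoPS-OVA and free OVA. For Per1 it was 1.03 with LysoPS-OVA and 1.27 with free OVA, and for Nr3c1 1.19 and 1.11. Sgk1, on only 9 and 20 UMIs in the barcodes with 2 or more, gave 0.638 and 1.11, and Klf9, on 27 and 24 UMIs, gave 1.17 and 0.889. The intervals of the sides overlapped for all 5 targets in both antigen libraries and did not overlap for Nr3c1. The sides also differed in median depth, with 5154 against 4191.5 UMIs for LysoPS-OVA and 5996 against 3749 for free OVA. Both receptors were higher in barcodes low in ribosomal transcripts, as given below. The part of depth or barcode kind in the differences between the sides, for the B cell genes below too, was not tested.

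Genes of B cell identity differed by at most 1.23-fold between the sides in the antigen libraries, and not all in 1 direction. Of 11 such genes, the intervals stood apart for 4 that were higher and 2 that were lower in barcodes with 2 or more for LysoPS-OVA, and for 5 that were higher and 0 that were lower for free OVA. Pax5, the factor that holds B cell identity, had ratios of 1.19 with LysoPS-OVA and 1.15 with free OVA. Bank1, a B cell receptor scaffold, had 1.11 with LysoPS-OVA and 1.23 with free OVA, and Ebf1, an early B cell factor, 1.09 and 1.12. Cd79a, a signalling chain of the B cell receptor, had 0.918 with LysoPS-OVA and 1.03 with free OVA. Ighd, the IgD constant region, had 1.001 and 1.08, Fcer2a (CD23) 0.93 and 1.06, and Cr2 (complement receptor CD21) 1.08 and 1.02. Top2a, a topoisomerase of dividing cells, was lower in barcodes with 2 or more, with 5.80 against 11.4 CPM for LysoPS-OVA and 6.84 against 20.1 CPM for free OVA. Those Top2a levels rest on 15 and 24 UMIs on the Nr3c2 side. In germinal centre B-like barcodes, of which there were 32 with LysoPS-OVA, 38 with free OVA and 63 with citrate buffer, Nr3c2 had 0, 10 and 0 UMIs. Counted as independent UMIs, the counts of 0 allow up to 10.2 CPM with LysoPS-OVA and 7.06 CPM with citrate buffer. Most Nr3c2 UMIs of B-like barcodes lay in few barcodes, so these limits may be too low. The share of germinal centre B-like barcodes with a UMI was 0% (0 to 10.9) with LysoPS-OVA, against 14.9% of B-like ones. With citrate buffer it was 0% (0 to 5.69), an interval that holds the 2.63% of B-like barcodes, so no lower level is shown there. With free OVA the level was 31.2 CPM (14.9 to 57.3).

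The level of Nr3c2 also varied with what a barcode held. B-like barcodes low in ribosomal transcripts had 173 CPM with LysoPS-OVA, 240.5 CPM with free OVA and 24.3 CPM with citrate buffer. Whole-cell-like barcodes (at least 10% ribosomal and at least 0.5% Malat1 UMIs) had 64.4 CPM with LysoPS-OVA, 90.1 CPM with free OVA and 11.02 CPM with citrate buffer. Barcodes low in Malat1, a nuclear RNA, had 11.4 CPM with LysoPS-OVA, 15.6 CPM with free OVA and 0 CPM with citrate buffer. The citrate buffer value in the last kind is 0 UMIs, which allows a level of up to 1.87 CPM. Within each kind the antigen libraries stood above citrate buffer, and among whole-cell-like barcodes the ratio over citrate buffer was 5.85 for LysoPS-OVA and 8.17 for free OVA.

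Split by sex transcripts, barcodes with Y-linked UMIs and no Xist had 65.01 CPM with LysoPS-OVA, 108 CPM with free OVA and 14.5 CPM with citrate buffer. Those with Xist and no Y-linked UMIs had 121 CPM with LysoPS-OVA, 82.9 CPM with free OVA and 10.6 CPM with citrate buffer. Barcodes of the first kind, called male-type below, were thus lower than the second, called female-type, with LysoPS-OVA and higher with free OVA. The ratio over citrate buffer was 4.50 in the first kind and 11.4 in the second for LysoPS-OVA, and 7.48 and 7.82 for free OVA. LysoPS-OVA over free OVA changed side, with 0.601 in male-type and 1.45 in female-type barcodes. The animals behind each kind are pooled, so differences between animals and between feedings cannot be told apart.

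**Figure D3:**
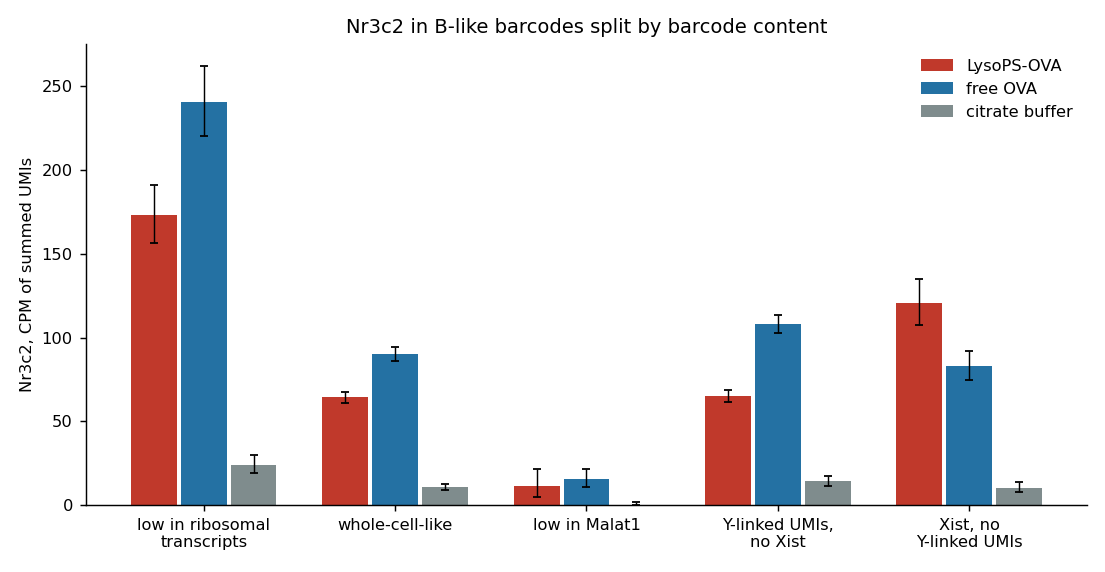
Nr3c2 level (CPM of summed UMIs, exact 95% Poisson intervals) in B-like barcodes split by ribosomal and Malat1 content and by sex transcripts, for LysoPS-OVA, free OVA and citrate buffer. Both antigen libraries are above citrate buffer in all 5 kinds of barcode, and the order of the antigen libraries differs between the sex-transcript kinds.

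Nr3c2 spans chr8:76899442-77245012 on the plus strand (GRCm38/mm10, GENCODE M21). The antisense gene Gm10649 lies inside it but had only 49 UMIs over all libraries. None of the 6 nearest measured genes, 3 on each side, was past 1.5-fold in B-like barcodes. Prmt9, a methyltransferase 304 kb downstream, had 20.6 CPM with LysoPS-OVA, 21.4 CPM with free OVA and 21.2 CPM with citrate buffer. Over the 6 the ratio over citrate buffer ranged between 0.738 and 1.16 for LysoPS-OVA and between 0.733 and 1.01 for free OVA.

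T cells that carry Foxp3, the master factor of regulatory T cells, showed the second highest Nr3c2 levels. Foxp3+ T-like barcodes (414 with LysoPS-OVA, 253 with free OVA and 284 with citrate buffer) had 39.1 CPM (31.3 to 48.3) with LysoPS-OVA, 63.3 CPM (50.6 to 78.3) with free OVA and 6.97 CPM (3.18 to 13.2) with citrate buffer. The antigen libraries lie above citrate buffer without overlap, on 86 UMIs with LysoPS-OVA, 85 with free OVA and 9 with citrate buffer. The ratio was 5.62 (2.83 to 12.7) for LysoPS-OVA over citrate buffer, 9.09 (4.57 to 20.6) for free OVA over citrate buffer and 0.618 (0.453 to 0.844) for LysoPS-OVA over free OVA. The size of these ratios varied over the alternatives, with few UMIs behind them. Thinning to 1000 UMIs gave 11.002 for LysoPS-OVA over citrate buffer, with Nr3c2 left in 1 of 284 citrate buffer barcodes. Female-type barcodes gave 35.9 (5.83 to 1478) for free OVA over citrate buffer, an interval that holds the 9.09 above. For LysoPS-OVA over free OVA they gave 0.201 (0.0668 to 0.507). Of 6 genes of the set measured there, 2 were at least 1.5-fold higher for LysoPS-OVA over citrate buffer (Nr3c2 and Per1), where 6.14% of all measured genes were, and 0 were at most 1/1.5, where 6.82% were. For free OVA over citrate buffer 1 was higher (Nr3c2) and 1 lower (Tsc22d3), where 6.5% and 9.03% of all genes were. Nr3c2 chose the set and passed the 10 CPM filter here only through the antigen libraries. Nothing is read from these counts.

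The 10 B cell markers, all detected in each library, summed in Foxp3+ T-like barcodes to this share of their B-like level: 3.22% with LysoPS-OVA, 3.97% with free OVA and 5.15% with citrate buffer. The same share for Nr3c2 was 54.4% with LysoPS-OVA, 65.8% with free OVA and 57.01% with citrate buffer. The gate asks for a T score at least 1.5 times the B score, which itself keeps the B markers low in T-like barcodes. The 2 shares can therefore not be compared as carry-over, and the part of B cell transcripts in the Nr3c2 level was not tested. In CD4 T-like barcodes without Foxp3 the share was 3.23% with LysoPS-OVA, 3.27% with free OVA and 4.86% with citrate buffer for the B markers. For Nr3c2 it was 13.2% with LysoPS-OVA, 11.2% with free OVA and 25.8% with citrate buffer. The thinned share of Foxp3+ T-like barcodes with Nr3c2 was 3.39% (1.87 to 5.62) with LysoPS-OVA, 4.45% (2.24 to 7.83) with free OVA and 0.352% (0.00891 to 1.95) with citrate buffer. The citrate buffer share rests on 1 of 284 barcodes, and its interval holds the share in CD8 T-like barcodes.

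In the remaining large classes Nr3c2 was under 15 CPM in every library. CD4 T-like barcodes had 9.52 CPM with LysoPS-OVA, 10.8 CPM with free OVA and 3.15 CPM with citrate buffer. CD8 T-like barcodes had 5.73 CPM with LysoPS-OVA, 11.3 CPM with free OVA and 2.12 CPM with citrate buffer. Migratory DC-like barcodes, dendritic cells that carry antigen from the gut, had 11.6 CPM with LysoPS-OVA, 13.6 CPM with free OVA and 2.74 CPM with citrate buffer. The antigen libraries were above citrate buffer in each of these classes, with ratios of 3.02 (2.07 to 4.53) and 3.43 (2.29 to 5.24) for LysoPS-OVA and free OVA in CD4 T-like barcodes. They were 2.71 (1.40 to 5.49) and 5.35 (2.84 to 10.7) in CD8 T-like and 4.23 (1.73 to 11.3) and 4.95 (2.36 to 11.99) in migratory DC-like barcodes. These ratios stayed above 1 under the alternatives in which both libraries held Nr3c2 UMIs, but their size did not hold. Among whole-cell-like migratory DC-like barcodes LysoPS-OVA had 0 CPM, below citrate buffer, and no ratio was computed. Of its barcodes in that class, 89.5% were low in Malat1 and so not whole-cell-like. Over the alternatives they ran from 1.89 to 5.11 for LysoPS-OVA and from 1.18 to 5.13 for free OVA in CD4 T-like barcodes, and from 1.51 to 3.61 and 2.69 to 5.78 in CD8 T-like ones. In migratory DC-like barcodes they ran from 2.32 to 6.45 for LysoPS-OVA and from 2.04 (female-type) to 16.4 (whole-cell-like) for free OVA. The gene failed the 10 CPM filter in all 3 classes. By the mean over libraries the order was B-like (60.1 CPM), Foxp3+ T-like (36.5), macrophage-like (16.8, on at most 7 UMIs), germinal centre B-like (10.4), migratory DC-like (9.29), CD4 T-like (7.82), CD8 T-like (6.39), conventional DC 1-like (5.58) and plasma-like (1.02). The library ranges of each class and the next overlap throughout.

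Nr3c1, the glucocorticoid receptor, lies on chromosome 18, was found in every class and as reported was within 1.5-fold between feedings in the large classes. Under the alternatives it passed that mark in CD8 T-like barcodes, at 1.57 for free OVA over citrate buffer and 0.567 for LysoPS-OVA over free OVA. In migratory DC-like barcodes it passed at 0.558 for free OVA over citrate buffer, and ran from 0.593 to 1.56 for LysoPS-OVA over free OVA. In B-like barcodes it had 329 CPM (323 to 336) with LysoPS-OVA, 340.3 CPM (333 to 347) with free OVA and 276 CPM (269 to 283) with citrate buffer. The citrate buffer library was the lowest and its interval stands apart from both others. The ratio was 1.19 (1.15 to 1.23) for LysoPS-OVA and 1.23 (1.19 to 1.27) for free OVA over citrate buffer, under the 1.5-fold mark. In CD4 T-like barcodes it had 206 CPM with LysoPS-OVA, 229 CPM with free OVA and 190.4 CPM with citrate buffer. In Foxp3+ T-like barcodes it had 261 CPM with LysoPS-OVA, 266 CPM with free OVA and 251 CPM with citrate buffer, and the 3 intervals overlap. Ordered by the mean over libraries, it was B-like (315 CPM), germinal centre B-like (277), Foxp3+ T-like (259), CD4 T-like (209), CD8 T-like (174), macrophage-like (142), plasma-like (126), conventional DC 1-like (115) and migratory DC-like (102). Library ranges did not overlap between Foxp3+ and CD4 T-like, between CD8 T-like and macrophage-like, and between conventional DC 1-like and migratory DC-like barcodes, and overlapped for all other neighbours in the order. Among whole-cell-like barcodes alone only the first of these gaps remained. There the macrophage-like mean (180 CPM) stood above CD8 T-like (165 CPM). The ranges of conventional DC 1-like (125 to 273 CPM) and migratory DC-like barcodes (119 to 200 CPM) overlapped.

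The 2 kinds of barcode differed in Nr3c1 as they did in Nr3c2. In B-like barcodes low in ribosomal transcripts Nr3c1 had 582 CPM with LysoPS-OVA, 597 CPM with free OVA and 426 CPM with citrate buffer, and in whole-cell-like barcodes 312 CPM with LysoPS-OVA, 337 CPM with free OVA and 263 CPM with citrate buffer. The receptor was therefore higher in barcodes with few ribosomal transcripts in every library. Tsc22d3 had 141 CPM with LysoPS-OVA, 106 CPM with free OVA and 91.05 CPM with citrate buffer in barcodes low in ribosomal transcripts, and 153 CPM with LysoPS-OVA, 112 CPM with free OVA and 124 CPM with citrate buffer in whole-cell-like ones, lower in the first kind in each library.

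**Figure D4:**
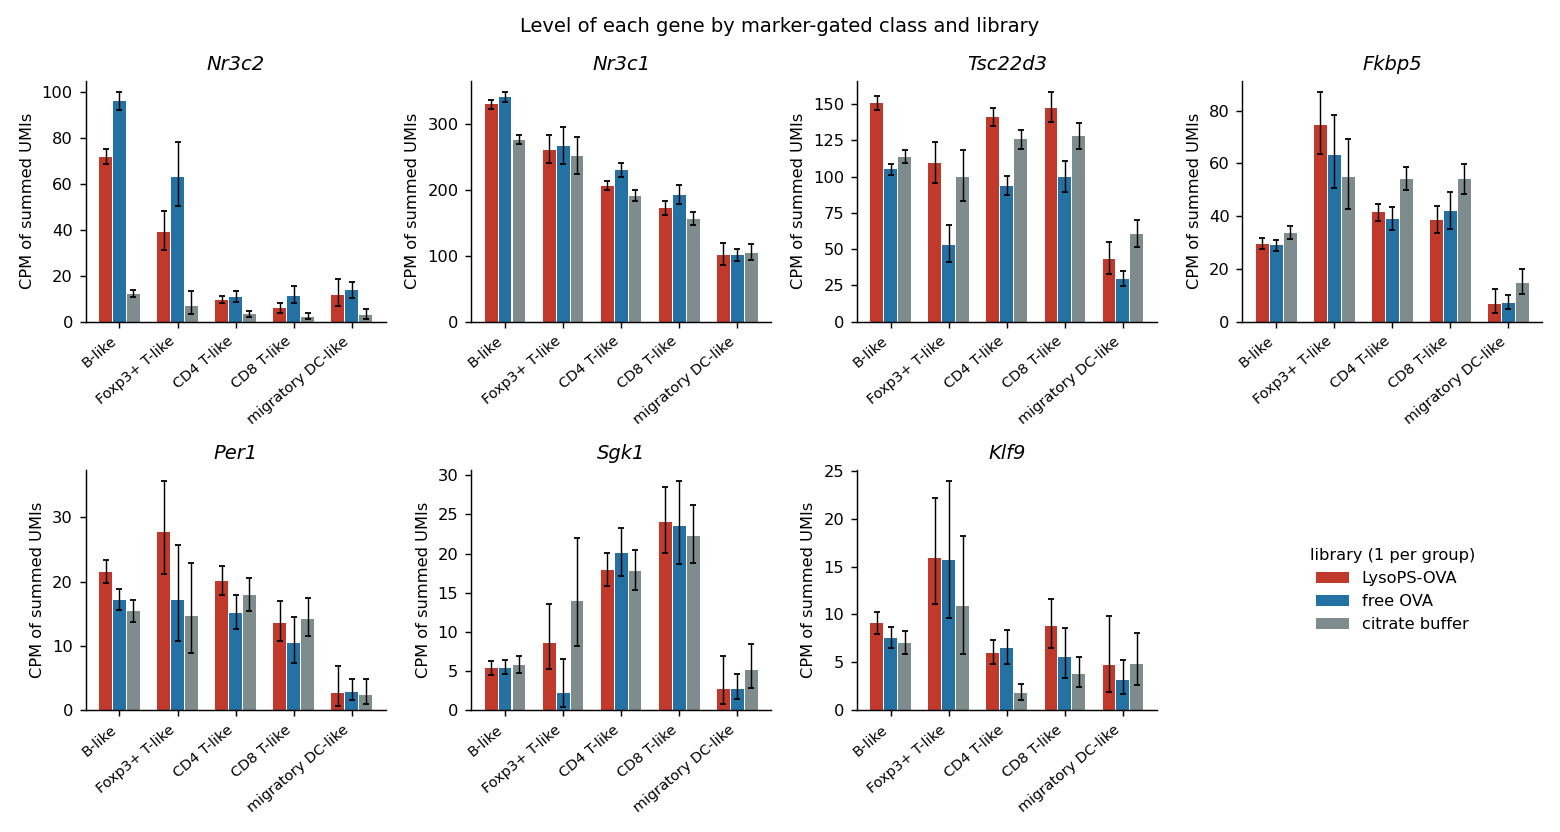
Level of each of the 7 genes (CPM of summed UMIs, exact 95% Poisson intervals, 1 library per bar) in B-like, Foxp3+ T-like, CD4 T-like, CD8 T-like and migratory DC-like barcodes of LysoPS-OVA, free OVA and citrate buffer, each panel on its own scale. Nr3c2 is low in citrate buffer in every class, and Tsc22d3 is lowest in free OVA in all 5 classes.

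Of the 5 genes of the set measured in B-like barcodes, 1 (Nr3c2) was at least 1.5-fold higher in each antigen library than in citrate buffer and 0 were at most 1/1.5. The shares of all measured genes were 2.12% higher and 2.12% lower for LysoPS-OVA, and 1.52% higher and 2.38% lower for free OVA. Under median-ratio scaling the balance for free OVA turned, with 166 genes higher and 140 lower against 121 and 190, and for LysoPS-OVA it was 197 and 151 against 169 and 169. Since Nr3c2 chose the set, nothing is read from these counts. The median log2 ratio of the 5 was 0.41 for LysoPS-OVA and 0.16 for free OVA, where the median of all measured genes was -0.04 and -0.07.

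Tsc22d3, the GILZ gene and a direct target of the glucocorticoid receptor, had the ratio between the antigen libraries farthest from 1 among the measured targets in B-like and T-like barcodes. In B-like barcodes it had 151 CPM (146 to 155) with LysoPS-OVA, 105 CPM (101 to 109) with free OVA and 114 CPM (109 to 118) with citrate buffer. LysoPS-OVA was the highest, and the free OVA and citrate buffer intervals all but touch. The ratio was 1.33 (1.26 to 1.40) for LysoPS-OVA over citrate buffer, 0.924 (0.874 to 0.977) for free OVA over citrate buffer and 1.43 (1.37 to 1.51) for LysoPS-OVA over free OVA. In the last comparison 0 of the 5 measured members passed the mark in either direction, where 0.364% of all measured genes were higher and 0.627% lower, and Tsc22d3 lay above 99.3% of them. CD4 T-like barcodes had 141 CPM with LysoPS-OVA, 93.6 CPM with free OVA and 126 CPM with citrate buffer, a ratio of 1.51 (1.39 to 1.64) for LysoPS-OVA over free OVA. It was the only gene of the set past 1.5-fold in that comparison, where 0.419% of all genes were higher and 0.748% lower. Against citrate buffer 0 of 5 measured members passed in CD4 T-like barcodes, where 1.34% of all genes were higher and 3.27% lower for LysoPS-OVA, and 1.23% and 2.99% for free OVA. CD8 T-like barcodes had 148 CPM with LysoPS-OVA, 99.6 CPM with free OVA and 128 CPM with citrate buffer, in the same order of libraries, and a ratio of 1.48 (1.31 to 1.69). There 0 of 5 measured members passed in any comparison, where the shares of all genes higher and lower were 1.62% and 4.01% for LysoPS-OVA over citrate buffer, 1.69% and 4.3% for free OVA over citrate buffer, and 1.4% and 1.49% for LysoPS-OVA over free OVA.

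Tsc22d3 lies at chrX:140539528-140600659 on the minus strand. The ratio between the antigen libraries was farthest from 1, among the 5 large classes, in Foxp3+ T-like barcodes, with 109 CPM (95.8 to 124) with LysoPS-OVA, 52.9 CPM (41.3 to 66.7) with free OVA and 99.8 CPM (83.3 to 119) with citrate buffer. Free OVA lay below the others there without overlap, on 240 UMIs with LysoPS-OVA, 71 with free OVA and 129 with citrate buffer. The ratio was 2.07 (1.58 to 2.73) for LysoPS-OVA over free OVA and 0.53 (0.391 to 0.713) for free OVA over citrate buffer. For LysoPS-OVA over free OVA 2 of 6 members were higher in this class (Tsc22d3 and Per1) and 1 lower (Nr3c2). Of all measured genes 5.68% were past 1.5-fold higher and 4.55% past it lower. The Per1 ratio was 1.62 (0.988 to 2.74), on 61 UMIs with LysoPS-OVA and 23 with free OVA, and its interval holds 1. Since Nr3c2 chose the set, nothing is read from these counts. Migratory DC-like barcodes had 42.9 CPM with LysoPS-OVA, 29.3 CPM with free OVA and 60.2 CPM with citrate buffer. There the ratio for free OVA over citrate buffer was 0.487 (0.386 to 0.614), in a class where 1.51% of all measured genes were higher, 25% were at most 1/1.5 and the median log2 ratio of all genes was -0.32. Of the 2 members measured there it alone passed. In the other comparisons of that class 0 of 2 passed, where 5.55% of all genes were higher and 11.5% lower for LysoPS-OVA over citrate buffer, and 18.2% and 2.37% for LysoPS-OVA over free OVA. The ratio between the antigen libraries also differed between male-type and female-type barcodes. In B-like barcodes LysoPS-OVA over free OVA was 1.22 among male-type and 1.95 among female-type barcodes, and in CD4 T-like ones 1.32 and 2.46. The part of sex or of single animals in the result was not tested. By the mean over libraries the order was CD8 T-like (125 CPM), B-like (123), CD4 T-like (120.1), Foxp3+ T-like (87.3), macrophage-like (65.6), migratory DC-like (44.1), germinal centre B-like (44.1), conventional DC 1-like (40.02) and plasma-like (35.3), and the library ranges of all neighbours in it overlap.

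Fkbp5, the co-chaperone, was lower in both antigen libraries than in citrate buffer in B-like, CD4 T-like, CD8 T-like and migratory DC-like barcodes. B-like barcodes had 29.5 CPM with LysoPS-OVA, 28.9 CPM with free OVA and 33.7 CPM with citrate buffer, with ratios over citrate buffer of 0.876 (0.791 to 0.971) for LysoPS-OVA and 0.859 (0.774 to 0.954) for free OVA. Among male-type barcodes the first of these was 1.03 (0.877 to 1.22), past 1, and the second 0.995 (0.837 to 1.19). CD4 T-like barcodes had 41.4 CPM with LysoPS-OVA, 38.95 CPM with free OVA and 54.2 CPM with citrate buffer. Their ratios were 0.764 (0.682 to 0.857) and 0.719 (0.626 to 0.824), on a scale where the median of all measured genes was -0.13 and -0.10 in log2. In CD8 T-like barcodes the ratios were 0.713 (0.599 to 0.847) for LysoPS-OVA and 0.774 (0.633 to 0.942) for free OVA. In migratory DC-like barcodes, where the gene was under the filter, they were 0.462 (0.207 to 0.935) on 10 UMIs with LysoPS-OVA and 0.484 (0.296 to 0.782) on 32 UMIs with free OVA, against 43 UMIs with citrate buffer. Plasma-like barcodes gave 0.324 and 0.282 on only 5 UMIs with LysoPS-OVA, 6 with free OVA and 21 with citrate buffer. Foxp3+ T-like barcodes went the other way, with 74.6 CPM with LysoPS-OVA, 63.3 CPM with free OVA and 54.9 CPM with citrate buffer and intervals that overlap between neighbours. The gene was highest in Foxp3+ T-like barcodes by the mean over libraries (64.3 CPM), without overlap with CD4 T-like (44.9 CPM), the next class, though these ranges overlap among whole-cell-like barcodes alone. Fkbp5 shares its locus with the annotated genes AC154912.1 and AC154912.5, of which 1 is on the same strand. These held 360 UMIs in all, so reads between them could have been split. The gene lies at chr17:28399094-28517527 on the minus strand.

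Per1, the clock repressor, was highest with LysoPS-OVA in B-like, Foxp3+ T-like and CD4 T-like barcodes. B-like barcodes had 21.5 CPM (19.8 to 23.3) with LysoPS-OVA, 17.2 CPM (15.6 to 18.8) with free OVA and 15.4 CPM (13.7 to 17.2) with citrate buffer. The ratio was 1.40 (1.22 to 1.61) for LysoPS-OVA over citrate buffer, under the 1.5-fold mark, and 1.11 (0.962 to 1.29) for free OVA over citrate buffer. Among female-type B-like barcodes both lay below 1, at 0.891 for LysoPS-OVA and 0.922 for free OVA. In Foxp3+ T-like barcodes it had 27.8 CPM with LysoPS-OVA, 17.1 CPM with free OVA and 14.7 CPM with citrate buffer, on 61 UMIs with LysoPS-OVA, 23 with free OVA and 19 with citrate buffer, and the LysoPS-OVA ratio was 1.89 (1.11 to 3.35). CD4 T-like barcodes had 20.1 CPM with LysoPS-OVA, 15.1 CPM with free OVA and 17.9 CPM with citrate buffer. The LysoPS-OVA ratio over citrate buffer there was 1.13 (0.938 to 1.35), within counting error, and 0.971 among male-type barcodes. In CD8 T-like barcodes the order was different, with 13.6 CPM with LysoPS-OVA, 10.5 CPM with free OVA and 14.2 CPM with citrate buffer and overlapping intervals. The mean over libraries ran from 19.9 CPM in Foxp3+ T-like to 2.67 CPM in migratory DC-like barcodes, with B-like (18.0) and CD4 T-like (17.7) barcodes close to the top. The ranges of CD4 T-like and CD8 T-like (12.8) barcodes do not overlap. Per1 lies at chr11:69095217-69109960 on the plus strand.

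Sgk1, the kinase with a window that holds the palindrome, did not differ between libraries beyond counting error in B-like or T-like barcodes other than Foxp3+ ones. CD8 T-like barcodes had 24.01 CPM with LysoPS-OVA, 23.5 CPM with free OVA and 22.2 CPM with citrate buffer, and CD4 T-like barcodes 17.9 CPM with LysoPS-OVA, 20.1 CPM with free OVA and 17.8 CPM with citrate buffer. B-like barcodes held less, 5.34 CPM with LysoPS-OVA, 5.45 CPM with free OVA and 5.74 CPM with citrate buffer. The CD4 T-like ratio was 1.004 (0.832 to 1.21) for LysoPS-OVA and 1.13 (0.912 to 1.39) for free OVA over citrate buffer. In Foxp3+ T-like barcodes it rested on 19 UMIs with LysoPS-OVA, 3 with free OVA and 18 with citrate buffer. By the mean over libraries macrophage-like barcodes were highest (34.2 CPM, on 4 UMIs with LysoPS-OVA, 4 with free OVA and 12 with citrate buffer), then CD8 T-like (23.3) and CD4 T-like (18.6). The last pair do not overlap in their library ranges. Among whole-cell-like barcodes alone the macrophage-like mean was 13.3 CPM, below CD8 T-like (23.9) and CD4 T-like (19.2). Conventional DC 1-like barcodes were highest there (36.8 CPM, with libraries from 9.62 to 89.1 CPM). Sgk1 lies at chr10:21882184-21999903 on the plus strand.

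Klf9, the zinc finger factor, was under 10 CPM in most classes. CD4 T-like barcodes had 6.02 CPM (4.86 to 7.38) with LysoPS-OVA, 6.45 CPM (4.86 to 8.40) with free OVA and 1.76 CPM (1.06 to 2.75) with citrate buffer. Both antigen libraries lie above citrate buffer there, with ratios of 3.42 (2.07 to 5.93) for LysoPS-OVA and 3.67 (2.14 to 6.54) for free OVA, on 93 UMIs with LysoPS-OVA, 55 with free OVA and 19 with citrate buffer. B-like barcodes had 9.10 CPM with LysoPS-OVA, 7.51 CPM with free OVA and 7.02 CPM with citrate buffer, ratios of 1.30 (1.05 to 1.60) and 1.07 (0.859 to 1.34). Because the mean was under 10 CPM, neither class counts Klf9 among the measured genes. Foxp3+ T-like barcodes were highest by the mean over libraries (14.1 CPM), with ranges that overlap the next class. Klf9 lies at chr19:23141226-23168134 on the plus strand.

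**Figure D5:**
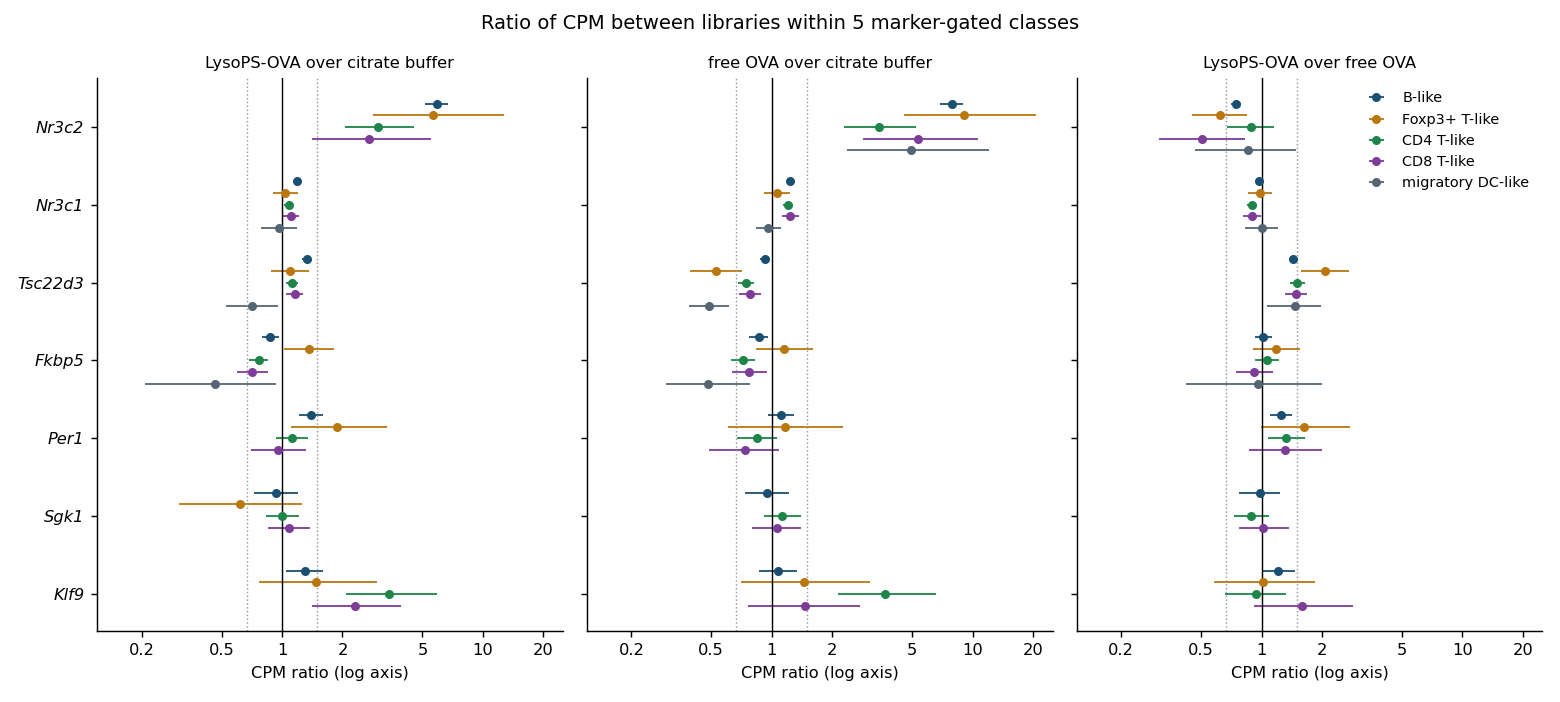
CPM ratio (log axis, exact 95% conditional binomial intervals) of each gene within 5 marker-gated classes, for LysoPS-OVA over citrate buffer, free OVA over citrate buffer and LysoPS-OVA over free OVA, drawn where the pair of libraries held at least 30 UMIs, with dotted lines at 1.5 and 1/1.5. Nr3c2 lies right of 1.5 for both antigen libraries over citrate buffer in all classes drawn, and Tsc22d3 lies right of 1 in all 5 classes for LysoPS-OVA over free OVA.

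A minority of the other genes that glucocorticoids induce differed between the libraries. Of 28 listed, 16 were measured in B-like barcodes, and 4 were at least 1.5-fold higher and 1 at most 1/1.5 for LysoPS-OVA over citrate buffer (2.12% of all measured genes were higher and 2.12% lower), with a median log2 ratio of 0.25. For free OVA over citrate buffer 4 were higher and 2 lower (1.52% and 2.38% of all measured genes), with a median of 0.13. Dusp1, a phosphatase that switches off MAP kinases, had 23.5 CPM with LysoPS-OVA, 16.97 CPM with free OVA and 9.18 CPM with citrate buffer. Cxcr4, a chemokine receptor that guides lymphocytes to marrow and follicles, had 76.3 CPM with LysoPS-OVA, 92.5 CPM with free OVA and 44.2 CPM with citrate buffer. Both were higher in each antigen library, and so was Cebpb, a transcription factor of inflammation, with ratios of 1.98 (1.71 to 2.30) for LysoPS-OVA and 1.87 (1.61 to 2.18) for free OVA. Il7r, the interleukin 7 receptor, went the other way in B-like barcodes, with 17.1 CPM with LysoPS-OVA, 12.9 CPM with free OVA and 28.7 CPM with citrate buffer. Il7r marks T cells, and the 8 T cell markers, none at 0, summed in the same barcodes to 170 CPM with LysoPS-OVA, 129 CPM with free OVA and 345 CPM with citrate buffer. The part of T cell transcripts in the Il7r difference was not tested. In CD4 T-like barcodes Il7r had 574 CPM with LysoPS-OVA, 461 CPM with free OVA and 418 CPM with citrate buffer, highest with LysoPS-OVA.

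Several chaperones that hold the receptors were in part higher with LysoPS-OVA. All 15 listed were measured in B-like barcodes, 5 were at least 1.5-fold higher for LysoPS-OVA over citrate buffer and 0 lower, against 2.12% and 2.12% of all measured genes, with a median log2 ratio of 0.34. For free OVA 2 were higher and 0 lower, against 1.52% and 2.38%, with a median of -0.03. Dnaja1, an Hsp40 co-chaperone that loads client proteins, had 493 CPM with LysoPS-OVA, 343 CPM with free OVA and 186 CPM with citrate buffer. Dnajb1, another Hsp40 protein, had 46.1 CPM with LysoPS-OVA, 39.7 CPM with free OVA and 17.3 CPM with citrate buffer. Stip1, which links Hsp70 to Hsp90, had 92.1 CPM with LysoPS-OVA, 70.1 CPM with free OVA and 49.997 CPM with citrate buffer, and Hspa8, the constitutive Hsp70, 682 CPM with LysoPS-OVA, 476 CPM with free OVA and 400.3 CPM with citrate buffer. Each of the 4 was ordered LysoPS-OVA, free OVA, citrate buffer from high to low. In CD4 T-like barcodes 5 of 15 were higher for LysoPS-OVA over citrate buffer, where 1.34% of all measured genes were, and 2 for free OVA, where 1.23% were. In these comparisons 0 chaperones were lower, where 3.27% of all genes were for LysoPS-OVA and 2.99% for free OVA. The 13 receptor cofactors (co-activators such as Ncoa1 and co-repressors such as Ncor1) were all measured in B-like barcodes and 0 passed 1.5-fold in either direction in any comparison, where at most 2.38% of all measured genes did in 1 direction, with medians of -0.01 for LysoPS-OVA and -0.12 for free OVA. Ncoa1 had ratios of 1.10 (1.06 to 1.15) for LysoPS-OVA and 1.26 (1.21 to 1.31) for free OVA, and Smarca4, the chromatin remodeller, 0.821 (0.771 to 0.874) and 0.785 (0.736 to 0.837). Gmeb1, which binds glucocorticoid modulatory elements, had ratios of 1.17 (1.07 to 1.29) and 1.11 (1.004 to 1.22), and the co-repressor Nrip1 0.902 (0.839 to 0.971) and 0.848 (0.786 to 0.914).

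Immediate early genes, which also rise when cells are dissociated, were mostly higher with LysoPS-OVA in B-like barcodes, and Dusp1 and Per1 are also known as such genes. Of 19 listed, 12 were measured in B-like barcodes, with 9 higher and 1 lower for LysoPS-OVA over citrate buffer (median log2 ratio 0.71) and 5 higher and 0 lower for free OVA (median 0.51). The shares of all measured genes, which hold for the clock genes below too, were 2.12% higher and 2.12% lower for LysoPS-OVA and 1.52% and 2.38% for free OVA. Fos, an AP-1 subunit, had 80.6 CPM with LysoPS-OVA, 70.1 CPM with free OVA and 28.3 CPM with citrate buffer. Fosb, a close relative, had 22.02 CPM with LysoPS-OVA, 49.7 CPM with free OVA and 5.64 CPM with citrate buffer and was highest with free OVA. Jun, their partner, had ratios of 2.05 (1.93 to 2.19) for LysoPS-OVA and 2.08 (1.96 to 2.22) for free OVA, and Ier5, a stress-response gene, 1.85 (1.75 to 1.95) and 1.78 (1.68 to 1.88). The part of tissue handling in the values of the target genes was not tested. Of 15 clock genes 4 were measured, and 1, the repressor Nr1d2, was past 1.5-fold with 17.2 CPM with LysoPS-OVA, 15.2 CPM with free OVA and 9.81 CPM with citrate buffer. The other 3, Arntl, Clock and Cry1, had ratios for LysoPS-OVA over citrate buffer of 1.33 (1.23 to 1.44), 1.02 (0.952 to 1.10) and 1.02 (0.904 to 1.15).

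Genes by which the mineralocorticoid receptor drives salt transport gave no common picture. The epithelial sodium channel genes Scnn1a, Scnn1b and Scnn1g had at most 4 UMIs in any B-like library sum. Of 10 listed, 4 were measured, with 0 higher and 2 lower for LysoPS-OVA over citrate buffer (2.12% of all measured genes were higher and 2.12% lower) and 0 higher and 1 lower for free OVA (1.52% and 2.38% of all measured genes). Nedd4, a ubiquitin ligase, had 29.1 CPM with LysoPS-OVA, 28.9 CPM with free OVA and 51.6 CPM with citrate buffer, lower in both antigen libraries. Atp1b1, the beta subunit of the sodium pump, had 13.6 CPM with LysoPS-OVA, 20.9 CPM with free OVA and 23.7 CPM with citrate buffer, lowest with LysoPS-OVA. Nedd4l, the ligase that Sgk1 restrains, had ratios of 1.22 (1.17 to 1.28) for LysoPS-OVA and 1.02 (0.98 to 1.07) for free OVA.

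Steroid supply and the other receptors of the NR3 family were mostly under the filter. Hsd11b1, which regenerates active glucocorticoid inside cells, was the only one of 8 supply genes measured in B-like barcodes, with 61.7 CPM with LysoPS-OVA, 71.2 CPM with free OVA and 56.6 CPM with citrate buffer. Hsd11b2, which inactivates glucocorticoid and so protects the mineralocorticoid receptor in kidney, had 5 UMIs with LysoPS-OVA, 2 with free OVA and 1 with citrate buffer. Abcb1a, a drug and steroid efflux pump, was measured in CD4 T-like barcodes, with 21.4 CPM with LysoPS-OVA, 16.9 CPM with free OVA and 6.39 CPM with citrate buffer and ratios of 3.35 (2.58 to 4.41) for LysoPS-OVA and 2.64 (1.97 to 3.57) for free OVA over citrate buffer. Abcb1b, its close copy, had ratios of 1.09 (0.928 to 1.28) and 0.955 (0.788 to 1.16) there, and reads of the pair could have been split in counting. Esr1, the estrogen receptor alpha, was the only other NR3 gene measured in B-like barcodes, with 33.5 CPM with LysoPS-OVA, 35.7 CPM with free OVA and 37.4 CPM with citrate buffer.

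The genes whose pattern was most like that of each member were found by Pearson's r of log2(CPM + 10) over 27 points, 9 classes in 3 libraries, among 8176 genes. These points share libraries and depth, so r is a description. For Nr3c2 the closest were Calhm2 (r = 0.783), Irak3 (0.720), Gigyf1 (0.711), Coq8a (0.700) and A330023F24Rik (0.693). For Nr3c1 they were Retreg1 (0.921) and Aff4 (0.918), and for Tsc22d3 Mndal (0.924) and Arap2 (0.920). Fkbp5 was closest to Hmgxb3 (0.877) and 1700028E10Rik (0.860), and Per1 to Banp (0.879) and Rbm14 (0.877). Sgk1 was closest to Lgals3bp (0.813) and Wnt5b (0.781), and Klf9 to Micu3 (0.788) and Wls (0.776). No other member was among the genes closest to a member: between Nr3c2 and its fellow members r ran from -0.07 (Sgk1) to 0.55 (Nr3c1), and the highest value within the set was 0.75, between Nr3c1 and Per1.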

How the data were processed

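Mesenteric lymph node cells of 3 groups, 1 pooled library each, were measured by droplet 3' single-cell RNA sequencing. Per the submitters' processing notes, Cell Ranger 7.2.0 and mm10 were used. No source used here gives the annotation or the intron setting. Deposited values are whole-number UMI counts per gene and barcode, with no normalization by the authors. Barcodes had to show 300 genes or more and no more than 10% mitochondrial UMIs, and those that Scrublet in scanpy 1.11.5 called doublets were removed (7.49% with LysoPS-OVA, 5.92% with free OVA and 17.0% with citrate buffer).

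Cell classes were gated on 17 marker lists: a barcode needed at least 3 detected markers and a rarity-weighted score at least 1.5 times that of the next class, a scoring rule chosen after the data were seen. Counts were summed per class and library and divided by their total (CPM). A gene counted as measured with a mean of at least 10 CPM and at least 30 UMIs over the pair, and as past the fold at a ratio of at least 1.5 or at most 1/1.5. With 1 library per group no test was possible; UMIs of cells are not replicates, and intervals and the 3-count limit behind a 0 cover counting error only. The members and all lists were chosen with earlier results of these data known. Beside the 7 genes, the text names from each list the 4 measured genes with the ratio farthest from 1 in B-like barcodes (LysoPS-OVA over citrate buffer), all measured steroid supply, NR3 and transport genes, and the genes of most similar pattern by Pearson's r of log2(CPM + 10), 5 for Nr3c2 and 2 for each other gene. Some genes that this rule names are not reported here. A few others were named after their values were seen: Arntl, Clock and Cry1 complete the measured clock genes. The ratio and interval calculations were tested on simulated data. Alternatives tried were doublets kept, other mitochondrial limits, a stricter gate, median-ratio scaling, averaging over barcodes, thinning to 1000 UMIs, whole-cell-like barcodes, and barcodes of 1 sex-transcript kind.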

Additional observations from a re-analysis of the deposited data

How the results depend on the processing

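No paired analysis was possible because each group is 1 library. No direction of Nr3c2 in B-like barcodes over citrate buffer turned under the 10 alternatives: LysoPS-OVA over citrate buffer, 5.88 as reported, ran between 4.50 (barcodes with Y-linked UMIs and no Xist) and 11.4 (Xist and no Y-linked UMIs). Free OVA over citrate buffer, 7.87 as reported, ran between 6.48 (mean of per-barcode CPM) and 8.65, with 6.74 after thinning to 1000 UMIs. LysoPS-OVA over free OVA lay above 1 in 1 of 10 alternatives (1.45, Xist and no Y-linked UMIs). In CD4 T-like barcodes Nr3c2 for free OVA over citrate buffer ran between 1.18 and 5.13. Tsc22d3 for LysoPS-OVA over free OVA stayed past 1.5 in Foxp3+ T-like barcodes in 10 of 10 alternatives (1.97 to 3.56) and in CD4 T-like barcodes in 9 of 10 (1.32 to 2.46). The count of genes past the fold in B-like barcodes depended on the filter. For LysoPS-OVA over citrate buffer 169 were higher, against 744 with no CPM filter, 56 at a mean of at least 50 CPM and 35 at a fold of 2, and 169 were lower, against 1264, 19 and 54. For free OVA over citrate buffer 121 were higher, against 727, 30 and 26, and 190 lower, against 1178, 37 and 53. For LysoPS-OVA over free OVA 29 were higher, against 419, 10 and 5, and 50 lower, against 627, 9 and 12. Median-ratio scaling gave 197 higher and 151 lower for LysoPS-OVA over citrate buffer, 166 and 140 for free OVA over citrate buffer, and 27 and 59 for LysoPS-OVA over free OVA. Over the ratios of the measured genes of the set (Nr3c2 in all classes) under the alternatives, 655 kept within their counting interval and 123 moved. None of those that moved was a called value that turned, and the cause was not tested. Alternatives that left a library with 0 UMIs of the gene gave no ratio and are not counted. In macrophage-like barcodes Nr3c2 rested on at most 7 UMIs, so depth sets what can be seen there.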
